A study of Homo sapiens with 2 samples.

Results

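IRF4, SPIB and PIM1 are genes typical of the ABC type (activated B cell-like) of diffuse large B cell lymphoma. The peaks described here are all those that the authors' table of TCF4 peaks in TMD8 cells assigned to these 3 gene names. There were 8 of them among 661 distinct peaks at 275 genes, 4 named IRF4, 1 named SPIB and 3 named PIM1. TMD8 is an established ABC-type lymphoma line, per the labels without a copy number gain of TCF4, in which a tetracycline-inducible construct supplied extra TCF4. The cells were given doxycycline at 60 ng/ml for 24 hours, and 1 library of TCF4-bound chromatin (ChIP) and 1 library of whole cell extract (input) were sequenced, both from treated cells. No library from untreated cells was analysed here, so binding by the TCF4 that the cells already had and by the induced TCF4 cannot be told apart. A peak table holds no expression values, so the identity of the line could not be checked against marker genes. The table was limited by the authors to peaks of signature genes marked Up or Down, and all 3 genes were marked Up, as were 229 of the 275.

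TCF4, also called E2-2, is a basic helix-loop-helix factor that binds E-box sequences in DNA and acts in B cells and plasmacytoid dendritic cells. IRF4 encodes an interferon regulatory factor required for plasma cell formation and for the survival of ABC-type lymphoma cells. SPIB encodes an Ets family factor of B cells and plasmacytoid dendritic cells, which can bind composite DNA elements together with IRF4. PIM1 encodes a serine/threonine kinase that promotes survival and growth, and its gene is a frequent target of aberrant somatic mutation in this lymphoma. Factors of this kind bind at promoters and at enhancers, which can lie far from the gene that they regulate.

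None of the 8 peaks was in the authors' promoter class, which reached 2000 bp from a transcription start site (TSS) and held 36 of the 661 peaks (5.45%). The promoter sequences of the 3 genes are therefore shown as the places that the peaks did not cover. They are the 250 bases before the TSS on the plus strand in RefSeq (GRCh38.p14), at chr6:391502-391751 for IRF4, chr19:50418688-50418937 for SPIB and chr6:37169902-37170151 for PIM1. Capitals mark a match to the E-box CANNTG, which reads the same on both strands.
IRF4: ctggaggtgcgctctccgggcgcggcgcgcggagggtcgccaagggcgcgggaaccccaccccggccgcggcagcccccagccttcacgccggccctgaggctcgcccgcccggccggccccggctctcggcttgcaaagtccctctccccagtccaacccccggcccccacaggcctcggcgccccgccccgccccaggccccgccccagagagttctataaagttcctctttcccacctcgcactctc
SPIB: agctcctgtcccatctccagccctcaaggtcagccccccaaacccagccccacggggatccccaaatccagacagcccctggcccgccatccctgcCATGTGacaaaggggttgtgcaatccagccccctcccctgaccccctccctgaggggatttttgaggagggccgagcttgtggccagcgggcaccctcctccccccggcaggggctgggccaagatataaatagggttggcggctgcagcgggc
PIM1: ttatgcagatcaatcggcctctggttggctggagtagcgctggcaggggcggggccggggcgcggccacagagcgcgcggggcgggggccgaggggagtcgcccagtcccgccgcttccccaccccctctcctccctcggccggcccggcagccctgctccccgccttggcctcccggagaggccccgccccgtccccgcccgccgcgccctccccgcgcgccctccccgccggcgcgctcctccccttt
The SPIB promoter held 1 E-box, CATGTG, whose first base lies 154 bases before the TSS. The IRF4 and PIM1 promoters held 0. Of 35116 promoters of the same length, 61.8% held at least 1 match. Narrower forms of this motif, searched on both strands, had 0 matches in all 3 promoters. The form CAGCTG was held by 13.99% of all promoters. The form CAGGTG was held by 17.5%, and CATCTG by 12.2%. The 3 promoters were GC-rich, with 76.0% G and C bases in IRF4, 66.4% in SPIB and 79.6% in PIM1, against a median of 58.0% over all promoters. A match of letters is not a binding site, and the sequence under the peaks themselves was not analysed here.

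All peak positions below are on the hg19 build. By the authors' position classes, 3 of the 8 peaks lay upstream of their gene, 1 within it and 4 downstream. Over all peaks listed, 344 (52.0%) lay within their assigned gene, 155 (23.4%) upstream and 162 (24.5%) downstream. The authors measured distances from a partner region of each peak, and those distances are given here unless another origin is named. The fold of a peak is its ChIP reads over its input reads, times a library scaling of 1.31 taken from the authors' normalized ratio. Each fold is followed by its exact 95% interval, which covers the counting error of these 2 libraries and no biological variation, since there were no replicates.

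IRF4 had the peak with the highest fold of the 8. It lay upstream on chromosome 6 from 370901 to 372705, 19.6 kb from the TSS, and was 1804 bp wide, the 9th widest of the table. With 631 reads in the ChIP and 49 in the input library, its fold was 16.9 (12.6 to 23.04). Only 1 of the 661 peaks had more ChIP reads. By the authors' deposited normalized log2 ratio, 4.05, it ranked 20 of 661. Its apex, the point of highest signal, was at 372138, which is 1237 bp into the peak and so nearer its gene-side end.

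The other 3 IRF4 peaks were lower and followed each other into and past the gene. The peak within the gene, from 393893 to 395151, lay 2.42 kb from the TSS and had 256 ChIP reads against 45 in the input, which is 7.45-fold (5.41 to 10.5). Both ends of this peak were more than 2000 bp from the TSS that the deposited distances imply, the nearer one by 2154.5 bp, so it fell just outside the promoter class. Its apex was 289 bp into a width of 1258 bp, again towards the TSS. The first downstream peak, from 443376 to 444026, was 52.0 kb from the TSS and 32.2 kb from the gene end, and its 95 ChIP reads against 15 gave 8.29-fold (4.78 to 15.4). The second downstream peak, from 471165 to 471607, was 79.7 kb from the TSS and 59.99 kb from the gene end, and its 96 ChIP reads against 25 gave 5.03-fold (3.21 to 8.15). These 2 distal peaks held nearly equal ChIP reads, over widths of 650 and 442 bp, and differed in input reads. Their ChIP reads per length, as normalized by the authors, were 3.36 and 4.99. The 4 peaks spanned 100.7 kb, with gaps of 21.2, 48.2 and 27.1 kb between neighbours.

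The deposited distances of the 4 IRF4 peaks led back to a shared TSS within 0.5 bp, at 391738.5, of the 1 transcript that the table lists for them, NR_046000. The table does not say on which side of a peak its partner region lies, and the sides that gave the closest match were taken. In the RefSeq order of protein-coding genes (GRCh38.p14) IRF4 lies between DUSP22, a phosphatase gene, and EXOC2, a gene of the exocyst complex. The table named neither neighbour. Whether the 2 distal peaks lie nearer to EXOC2 than to IRF4 was not analysed here, since no hg19 gene annotation was used.

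SPIB had a single peak, and it was among the best covered of the table. It lay on chromosome 19 from 50939444 to 50940736, downstream of the gene, 18.01 kb from the TSS and 5.89 kb from the gene end. It held 547 ChIP reads, the 4th most of the 661 peaks, and 62 input reads, the 6th most, with a fold of 11.6 (8.87 to 15.3). Its normalized log2 ratio in the authors' deposited table, 3.51, ranked 65. Its ChIP density, the authors' normalized reads per length, was 9.72 and ranked 13. Its input density was 0.841, above the third quartile of 0.608 over the 75 peaks wider than 1000 bp. Both libraries were thus high in this peak, and any part of local input level in its ChIP reads was not tested.

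A single peak is common in the table, where 106 of 275 genes (38.5%) had 1. In RefSeq order SPIB lies between POLD1, the gene of the catalytic subunit of DNA polymerase delta, and MYBPC2, which encodes a myosin-binding protein of fast skeletal muscle. The peak lies on the MYBPC2 side. The table named neither gene, and whether the peak lies inside MYBPC2 was not analysed here.

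PIM1 had 3 peaks on chromosome 6, 2 upstream and 1 downstream, and the upstream ones were the higher. The far upstream peak, from 37071001 to 37071514, lay 66.7 kb from the TSS and had 181 ChIP reads against 20, or 11.9-fold (7.45 to 19.9). The near upstream peak, from 37123199 to 37124028, lay 14.3 kb from the TSS and had 208 against 27, or 10.1-fold (6.74 to 15.7). Their normalized log2 ratios in the authors' deposited table, 3.50 and 3.29, ranked 66 and 106. The downstream peak, from 37162076 to 37162389, lay 24.3 kb from the TSS and 19.1 kb from the gene end.

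That downstream peak had 28 ChIP reads against 13, or 2.82-fold (1.41 to 5.93), and ranked 638 of 661. It was also the narrowest of the 8, at 313 bp. Its ChIP density of 2.05 was the lowest of the 8 and ranked 648 of 661, while its input density of 0.728 was above the table's median of 0.559. The other 2 PIM1 peaks had ChIP densities of 8.10 and 5.76. The 3 peaks spanned 91.4 kb, with gaps of 51.7 and 38.0 kb.

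The deposited distances of the PIM1 peaks led back to a shared TSS within 1.5 bp, at 37137920.5, of the transcript NM_002648. In the RefSeq order of protein-coding genes PIM1 lies between FGD2, which encodes an exchange factor for the small GTPase CDC42, and TMEM217B, a transmembrane protein gene followed by TMEM217. The table named none of these 3 genes. Among all genes of the table there was no peak of another gene within 1000000 bp of any of the 8 peaks. The nearest other named gene was HIVEP1 for IRF4, at 11.6 Mb, TMEM160 for SPIB, at 3.37 Mb, and HIST1H1C for PIM1, at 11.0005 Mb. The spacing reflects a table of signature genes only, and says nothing about peaks that it left out.

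**Figure D1:**
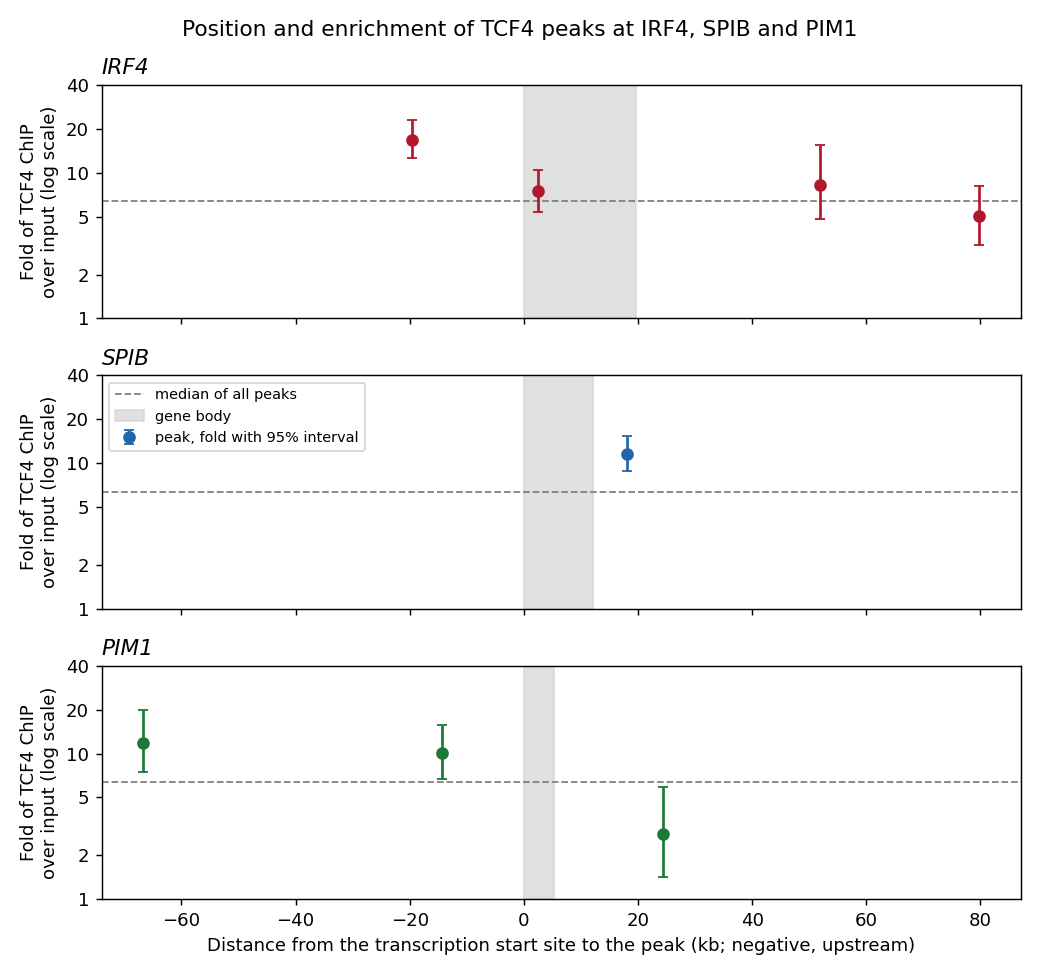
Fold of TCF4 ChIP over input (y axis, log scale) against the authors' signed distance from the TSS in kb (x axis) for the peaks of IRF4, SPIB and PIM1. Points are peaks, bars are exact 95% intervals, the grey band is the gene body implied by the deposited distances and the dashed line is the median fold of all 661 peaks, 6.36. The highest IRF4 peak and both higher PIM1 peaks lie upstream, and only the IRF4 peak at 2.42 kb lies in the body of its assigned gene. The bodies of other genes were not examined.

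The 8 peaks were next set against the whole table. In 7 of the 8 the whole interval exceeded 2, against 85.5% of all peaks, a share near the background. It exceeded 1 in all 8, against 99.8%, and above 4 in 6, against 43.9%. Peak calling had already used these reads, and the counts are therefore no independent test of enrichment. The fold was above the table's median of 6.36 in 6 peaks, the exceptions being the second downstream peak of IRF4 and the downstream peak of PIM1. Above the third quartile of 8.73 were the highest IRF4 peak, the SPIB peak and both upstream PIM1 peaks.

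ChIP reads were above the table's median of 73 in 7 of the 8 peaks, all but the downstream PIM1 peak. Width was above the median of 492 bp in 6, and the 2 narrower peaks were the same 2 whose folds lay under the median. Input densities ran from 0.405 at the first downstream IRF4 peak to 0.992 at the second, the latter ranking 51 of 661. The median over the 21 table peaks of chromosome 6, the 4 of IRF4 and 3 of PIM1 included, was 0.566. Over the 16 of chromosome 19, the SPIB peak included, it was 0.555. The highest IRF4 peak had an input density of 0.476, close to the median of 0.495 over the 75 peaks wider than 1000 bp, and a ChIP density of 8.03, which ranked 28.

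**Figure D2:**
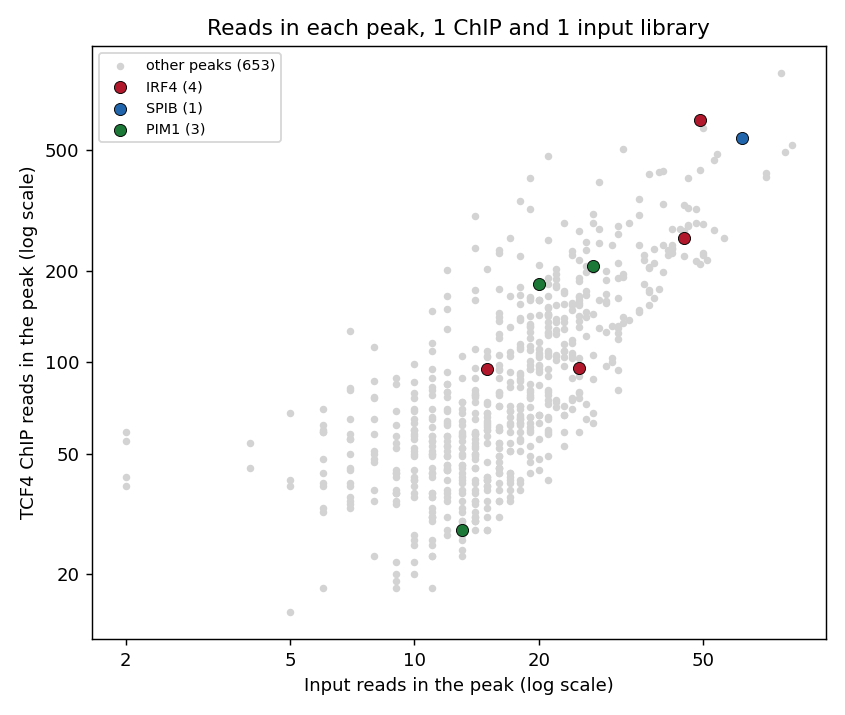
TCF4 ChIP reads (y axis) against input reads (x axis) in each of the 661 peaks, both on log scales, with grey points for the 653 peaks of other genes and coloured points for IRF4, SPIB and PIM1. The highest IRF4 peak, with 631 ChIP reads, and the SPIB peak, with 547, lie at the upper edge of the cloud, and the downstream PIM1 peak, with 28, near its lower edge.

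**Figure D3:**
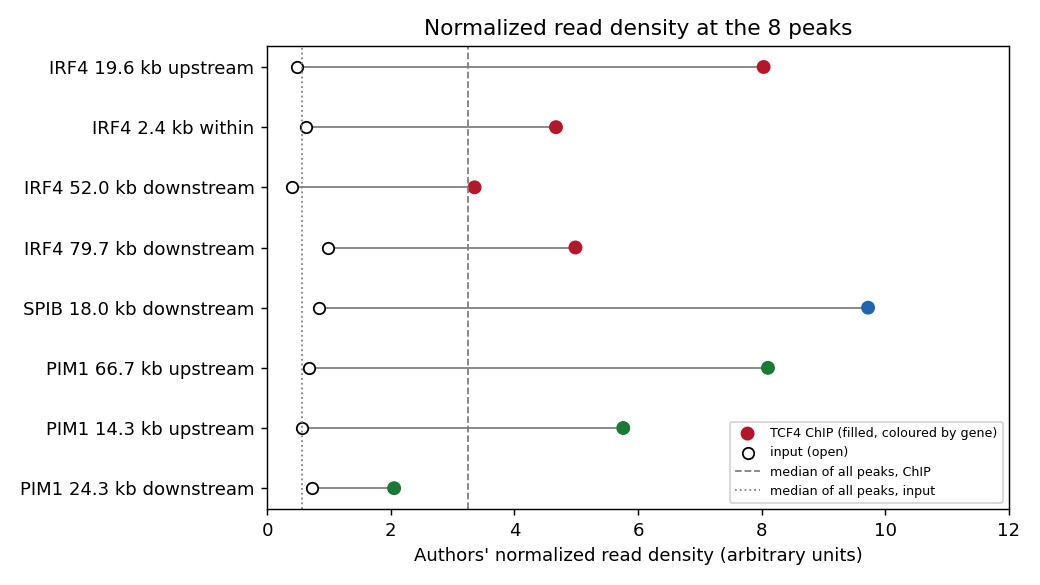
Authors' normalized read density (x axis, unit not given in the file headers) of the ChIP (filled) and input (open) libraries at each of the 8 peaks, with the medians of all peaks as dashed and dotted lines. Input densities lie between 0.405 and 0.992 and ChIP densities between 2.05 and 9.72, the lowest at the downstream PIM1 peak and the highest at SPIB.

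Reads summed over all peaks of a gene put IRF4 at 1078 ChIP reads over 4154 bp of peaks, the 11th highest sum of 275 genes. SPIB, with 547 reads over 1292 bp, was 26th, and PIM1, with 417 reads over 1655 bp, was 39th. These sums grow with the number and width of the called peaks and are no measure of enrichment. At least 4 peaks were listed for 51 genes (18.5%) and at least 3 for 95 genes (34.5%).

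Within IRF4 and within PIM1, the folds of some peaks differed by more than the counting error of these libraries. No replicate was there to measure other variation. Ratios of folds, in which the library scaling cancels, were computed for all 28 pairs of the 8 peaks, each with an exact 95% interval. The interval lay above 1 in 13 pairs, and in 5 pairs after Bonferroni adjustment over the 28. The highest IRF4 peak exceeded the peak within the gene by 2.26 times (1.44 to 3.56), the first downstream peak by 2.03 times (1.02 to 3.86) and the second by 3.35 times (1.89 to 5.82). Of these, the ratios to the peak within the gene and to the second downstream peak kept an adjusted interval above 1 (1.11 to 4.60 and 1.35 to 7.88). The 3 lower IRF4 peaks could not be ordered among themselves, with ratios of 1.11 (0.576 to 2.25), 1.48 (0.822 to 2.62) and 1.65 (0.779 to 3.58).

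At PIM1 the 2 upstream peaks could not be ordered, with a ratio of 1.17 (0.611 to 2.29). The far upstream peak exceeded the downstream one by 4.20 times (1.70 to 10.001), with an adjusted interval of 1.03 to 16.1. The near upstream peak exceeded it by 3.58 times (1.504 to 8.16), and the adjusted interval included 1. The remaining 2 pairs with an adjusted interval above 1 set the highest IRF4 peak, 5.98 times (2.66 to 12.8), and the SPIB peak, 4.10 times (1.84 to 8.66), against the same downstream PIM1 peak.

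Between genes the strongest peaks were not separable. The ratio of IRF4 to SPIB was 1.46 (0.969 to 2.21), of IRF4 to PIM1 1.42 (0.780 to 2.51) and of PIM1 to SPIB 1.03 (0.592 to 1.84). These intervals allow no difference, and they also allow IRF4 to be about 2.21 times SPIB. Each strongest peak was picked by these same reads, from 4 at IRF4, 3 at PIM1 and 1 at SPIB. The intervals do not allow for that choice.

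**Figure D4:**
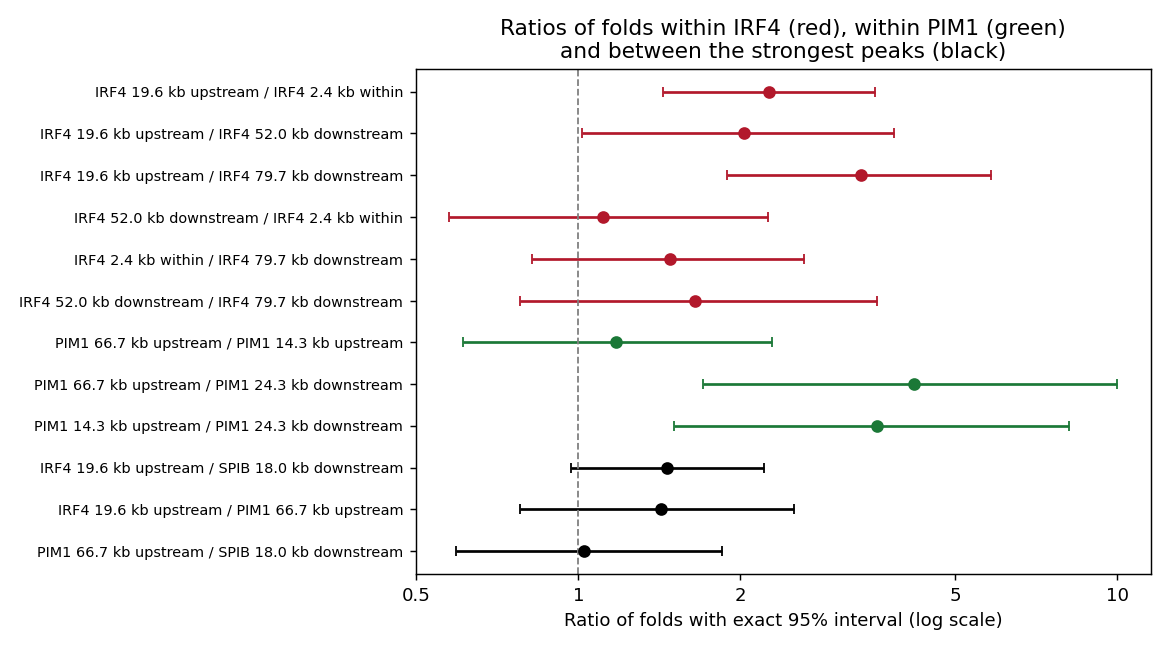
Ratios of folds (x axis, log scale) with unadjusted exact 95% intervals for the 6 pairs within IRF4, the 3 pairs within PIM1 and the 3 pairs of strongest peaks. Intervals right of the dashed line at 1 are those of the highest IRF4 peak over the other 3 IRF4 peaks and of both upstream PIM1 peaks over the downstream one.

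The spread of folds within a gene was 3.35 times from lowest to highest at IRF4 and 4.20 times at PIM1. Over the 95 genes with at least 3 peaks its median was 2.42 times and its largest value 6.25 times. A spread at least as large as that of IRF4 was seen in 21 of these genes, IRF4 included, and one at least as large as that of PIM1 in 9, PIM1 included. The spread of these 2 genes was therefore above the median, and neither was the largest. Such a spread tends to rise with the number of peaks and with low read counts, and it was not adjusted for either. The lowest PIM1 peak had 28 ChIP reads against 13.

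The genes whose strongest peak was most like that of each member were found over 275 genes by distance in standardized log ChIP density, log input density and log width, which rest on 2 libraries. For IRF4 they were IER2, an immediate early gene marked Down, whose 1772 bp peak had 590 ChIP reads against 50 and 15.5-fold enrichment (11.6 to 21.1), and BCL2L11, the gene of the pro-apoptotic protein BIM, with 425 and 39 reads over 1426 bp. For SPIB they were RGS3, a regulator of G protein signalling marked Down, with 419 and 71 reads, and NFATC1, a calcium-responsive transcription factor gene, with 394 and 28 reads. The fold of RGS3, 7.73 (5.997 to 10.1), was below the 11.6 of SPIB, and that of NFATC1, 18.4 (12.6 to 28.1), was above it. SPIB was the least closely matched, at distances of 1.07 and 1.18 in units of SD, against 0.139 and 0.628 for IRF4. For PIM1 they were ACAA2, which encodes a mitochondrial thiolase, with 165 and 17 reads, and ANKRD27, a gene of endosomal trafficking, with 190 and 25 reads, at distances of 0.295 and 0.347.

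Among the listed relatives, IRF4 was the only 1 named of 9 IRF family genes, SPIB the only 1 of 12 Ets factor genes of blood cells and PIM1 the only 1 of 3 PIM kinase genes. The peaks were chosen by these 3 names, so a count of at least 1 in each list was fixed in advance. The counts are no measure of selectivity within a family. Of 12 B cell transcription factor genes, chosen as partners or targets of IRF and Ets factors, 1 was named, BCL11A, with 7 peaks of up to 12.9-fold (5.58 to 36.5). The table names 275 genes, a small part of all genes, so low counts are what short lists give, and a gene left out cannot be called unbound.

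Of 30 ABC-type and plasma cell genes considered here, 7 were named. That count includes IRF4, SPIB and PIM1, by which the peaks were chosen. The share of all genes that the table names was not computed beside it. The count therefore cannot be read as an excess, alone or against the germinal centre list below. All 7 were marked Up, but so were 83.3% of all named genes. The 4 beside IRF4, SPIB and PIM1 were BCL2, FOXP1, SLA and TCF4, the last being the gene that the inducible construct supplied. SLA, which encodes an adaptor that dampens antigen receptor signalling, had 2 peaks, with up to 8.37-fold (5.06 to 14.6). The strongest peaks of BCL2, TCF4 and FOXP1 had 9.36, 8.97 and 8.40-fold. The median fold of the strongest peak was 9.36 over the 7 genes, 8.68 over the 4 without IRF4, SPIB and PIM1, and 8.25 over all 275. A highest fold tends to rise with the number of peaks, and the medians were not adjusted for it. That number was 10 at FOXP1, 9 at BCL2, 5 at TCF4, 4 at IRF4, 3 at PIM1, 2 at SLA and 1 at SPIB, while 106 of the 275 genes had 1. A list of 14 germinal centre B cell gene names held MME and CD10, which are names of the same gene. Of these names the table held 1, LMO2, marked Down, whose strongest peak of 9.28-fold (5.04 to 18.7) lay in the promoter class. These lists describe what the table holds, and the choice of their members was not independent of it.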

How the data were processed

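Peaks were taken from 1 deposited table of 662 lines, of which 661 were distinct intervals, and the rows with the gene names IRF4, SPIB and PIM1 were kept. BWA, GATK and hg19 are named in the submitters' processing notes, without roles. Neither the peak caller nor any use in the scaling of the spike-in chromatin, added per the labels' protocols, is stated in the sources used here. The authors deposited whole-number read counts per peak for both libraries, and the column marked IC was taken as the input, the only other library. In 661 peaks the deposited log2 ratio was that of the reads after 1 was added to each count (tolerance 1e-06), and the deposited normalized log2 ratio added 0.39. The deposited signal was reads per peak length times 1 constant per library. The deposited −log10 p-values were not used. The table's peaks held 71988 ChIP and 12661 input reads in all; library totals are not in the table.

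Folds had no pseudocount, and intervals were exact (Clopper-Pearson for folds, conditional for ratios of folds, Python 3.11.15, scipy 1.17.1), checked on simulated reads. PCR copies make them too narrow. No p-value was computed, since each kind had 1 library. Promoters and gene order came from RefSeq (GRCh38.p14), where 3 of 3 names matched, and no coordinate was carried between builds. Members and lists were chosen with earlier results of these data known. A gene of the lists is not reported here. Genes named were the 3 members, members of the lists, neighbours, and the 2 genes nearest to each member in peak shape. Alternatives were a count of 1 read added, no scaling, densities, other rankings, and other interval limits.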

Additional observations from a re-analysis of the deposited data

How the results depend on the processing

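The 8 folds kept their side of the limit of 2 with 1 read added and without library scaling. The ratio of the authors' densities gives the same folds by construction and is no separate check. The number of peaks with an interval above 2 was 7 with and without scaling. The rank of the highest IRF4 peak, 20 by normalized ratio, became 2 by ChIP reads and 8 by the lower bound of the fold. Both lie beyond a range of 10 to 60, which came from moving the fold of this peak alone to its interval bounds. That range belongs to the fold without a pseudocount, by which the peak ranked 24. Ranking by ChIP reads also moved 2 of the other 7 ranks beyond their own such ranges, and ranking by ChIP density moved 2. Leaving out chromosomes 3 and 18 moved none of the 8. None of the 8 lies on those chromosomes, so their order could not change. The ranks in the shorter list were compared with ranges taken over all peaks, which makes this a weak check. The ratio of SPIB to PIM1, 0.975 (0.542 to 1.69), changed direction to 1.004 with 1 read added and to 1.15 when the strongest peak was taken by ChIP reads, and each interval included 1. Under the Bonferroni adjustment, chosen after the data were seen, 5 pairs in place of 13 had an interval above 1, by its wider intervals. No paired analysis was possible because only 1 library of each kind was analysed. Depth limits the downstream PIM1 peak most, with 28 and 13 reads and an interval from 1.41 to 5.93.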
